A study of Homo sapiens with 12 samples.

Results

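The genes described here lie on a segment of human chromosome 12 that runs from the start of PPHLN1 at base 42238447 to the end of ZNF641 at base 48351414 (GRCh38, 6.11 Mb). Of 130 genes annotated there, 42 had at least 10 counts in 3 of the 12 libraries. Leaving out SLC38A1, SLC38A2, VDR and PFKM gives 38 members of the 57500 genes listed, 22 of them protein-coding and 16 not. The segment was chosen by the difference between survivors (rABS) and untreated cells (Parental) among neighbouring genes, so those 6 libraries are described here without a test. The name "lowered" held for only part of the members. Of the 36 members with enough counts for the model, 22 were called lower in rABS than in Parental and 4 were called higher, that is, with a Benjamini-Hochberg adjusted p under 0.05 in edgeR's quasi-likelihood test. Over all 15805 genes tested, 29.9% were called lower and 29.9% higher. The segment was chosen on this contrast, so nothing is read from the difference.

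OE33 is a line of esophageal adenocarcinoma, the cancer that arises in the reflux-exposed lower esophagus. RNA was sequenced from 4 groups of 3 libraries each, after selection of polyadenylated RNA. Parental cells were untreated. The rABS cells had survived 15 days on which they met bile salts at 200 µM and pH 5.5 for 20 minutes a day. The other 2 groups are rABS cells that carry a stably transduced short hairpin RNA, either a non-targeting one (rABS_shCtrl, called shCtrl below) or one against APE1 (rABS_shAPE1, called shAPE1 below), the DNA repair endonuclease encoded by APEX1. All 3 survivor groups thus share the exposure. No group was kept for 15 days without bile salts, so exposure and time in culture cannot be told apart, and 1 hairpin against APE1 was used.

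Genes that sit side by side on a chromosome can share copy number, chromatin state and regulatory elements, and some start back to back from a common stretch of DNA. The genes of the segment do not belong to 1 pathway. They include chromatin and SUMO regulators (PPHLN1, ARID2, HDAC7, SENP1), RNA-processing factors (ZCRB1, SCAF11, PUS7L), signalling proteins (IRAK4, RAPGEF3) and membrane proteins (ANO6, AMIGO2, SLC48A1). In bulk RNA, fewer cells with a transcript and less of it per cell cannot be told apart.

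Library totals ran from 15736087 to 23010377 counts. The model tested 15805 genes, 839 of them on chromosome 12. The level of APEX1 was 52.9 to 56.9 CPM (counts scaled to the size of the library) in Parental, 79.9 to 84.5 in rABS, 56.5 to 62.0 in shCtrl and 4.42 to 5.88 in shAPE1, so every shAPE1 library was below every other library. All 6 epithelial markers were measured, with a summed level of 9373 to 14745 CPM. Endothelial markers summed to at most 0.826 CPM. Of 5 fibroblast markers, LUM was at 0 in every library and 1 was tested. Their sum was 20.9 to 27.1 CPM in Parental, 3.49 to 4.23 in rABS, 9.48 to 9.97 in shCtrl and 7.23 to 8.19 in shAPE1. Of 4 leukocyte markers 1 was tested, and their sum was 2.13 to 3.24 CPM in Parental and 3.97 to 6.62 in the survivor groups. The fibroblast sum moved in the same direction as the segment, and its part in the results was not tested.

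Of the 38 members, 10 have only an Ensembl identifier, and 26 overlap another measured gene. The strand setting of the counting was not stated in the sources used, so reads of overlapping genes on opposite strands cannot be told apart. The count rule just admitted SLC38A4 (highest count 13), ENDOU (16) and ENSG00000269514 (16), each with 3 libraries at 10 counts. ENSG00000276390 (highest count 13) and AC004801.6 (12) had 2 such libraries and are no members. SLC38A4 and ENDOU, at 0.146 to 0.475 CPM per group, were too low for the model, which left 36 members.

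In 5 places, a pair of neighbours on opposite strands started within 1000 bases of each other. The DNA between the 2 starts is shown for the 3 pairs whose starts lie apart. In these pairs the log2 differences of rABS from Parental had opposite signs, called or not. Also shown is the stretch before the start of AMIGO2, which was low in all 3 survivor groups. Sequences are RefSeq GRCh38.p14, plus strand, 5′ to 3′, and overlap no exon. Capitals mark, on either strand, a GC box, an E-box, a CCAAT box and an AP-1 site, whose letters are given with the shares of promoters that hold them.
PUS7L to IRAK4, chr12:43758818-43758943: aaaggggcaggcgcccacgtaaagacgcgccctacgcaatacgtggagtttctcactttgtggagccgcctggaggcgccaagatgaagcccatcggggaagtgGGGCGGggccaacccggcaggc
YAF2 to PPHLN1, chr12:42238350-42238446: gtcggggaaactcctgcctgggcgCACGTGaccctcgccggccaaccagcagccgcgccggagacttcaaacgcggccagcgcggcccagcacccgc
RPAP3 to RPAP3-DT, chr12:47706062-47706084: ccccgcggcctcgccCCGCCCcc
before AMIGO2, chr12:47079952-47080200: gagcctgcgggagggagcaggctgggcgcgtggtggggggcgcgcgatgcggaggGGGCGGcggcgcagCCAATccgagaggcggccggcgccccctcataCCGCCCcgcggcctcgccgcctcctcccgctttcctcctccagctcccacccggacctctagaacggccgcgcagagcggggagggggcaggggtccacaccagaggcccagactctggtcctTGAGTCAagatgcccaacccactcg

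The stretch between PUS7L and IRAK4 is 126 bases long and 65.1% G or C. PUS7L, a relative of the pseudouridine synthases that modify RNA, runs to the left of it on the minus strand. Its level was 17.5, 24.2 and 20.9 CPM in the Parental libraries, 46.2, 41.7 and 56.2 in those of rABS, 41.7, 40.9 and 34.7 in those of shCtrl and 39.5, 28.6 and 38.1 in those of shAPE1. Every survivor library was above every Parental library. IRAK4, the kinase that starts the relay from Toll-like and interleukin-1 receptors, runs to the right on the plus strand. Its level was 17.8, 20.9 and 22.7 CPM (Parental), 9.79, 10.5 and 9.83 (rABS), 14.5, 12.8 and 11.6 (shCtrl) and 15.0, 12.7 and 13.8 (shAPE1). Every survivor library was below every Parental library. So genes that start 127 bases apart differed by 1.20 ± 0.13 (PUS7L) and by -1.03 ± 0.12 (IRAK4) on the log2 scale between rABS and Parental (± standard error, as for each log2 difference from the model here).

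The other pairs were mixed. PPHLN1 starts 98 bases from YAF2, the first gene outside the segment, and the log2 differences of rABS from Parental were 0.31 and -0.23. RPAP3 and the non-coding RPAP3-DT start 24 bases apart, with 0.22 and -0.99. ANO6 and the pseudogene PLEKHA8P1 have starts that overlap by 54 bases, with -0.36 and 1.26. AMIGO2 and PCED1B overlap by 348 bases at their starts and were both lower, with -1.93 and -2.66. The signs were opposite in 4 of the 5 pairs, but YAF2, RPAP3 and RPAP3-DT were not called in this comparison. Both genes were called in the pairs of PUS7L and ANO6, with opposite signs, and in that of AMIGO2, with the same sign. Over the genome they were opposite in 40.2% of 1693 such pairs, and in 192 of the 588 pairs with both genes called (32.7%).

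Of the members, 24 have a promoter in the RefSeq table (250 bases before to 50 after the first start). A GC box (GGGCGG, either strand as for each motif) was present in 17 of them (70.8%), against 44.6% of all 27305 promoters. The ETS letters CCGGAAG were present in 7 (29.2%, against 10.7%), CCAAT in 5 (20.8%, against 35.7%), the AP-1 letters TGACTCA or TGAGTCA in 3 (12.5%, against 4.92%) and TATAAA in 3 (12.5%, against 12%). The E-box CACGTG was present in 1 (4.17%, against 7.43%). The cAMP response element TGACGTCA, the ATF4 letters TGATGCAA and the NRF1 letters were present in none (1.98%, 0.923% and 1.36% of all promoters). These shares describe letters in 24 windows. The members had to reach a count in these libraries, while the 27305 promoters include genes at any level. The 2 sets are therefore unlike, and nothing is read from the differences between their shares.

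**Figure D1:**
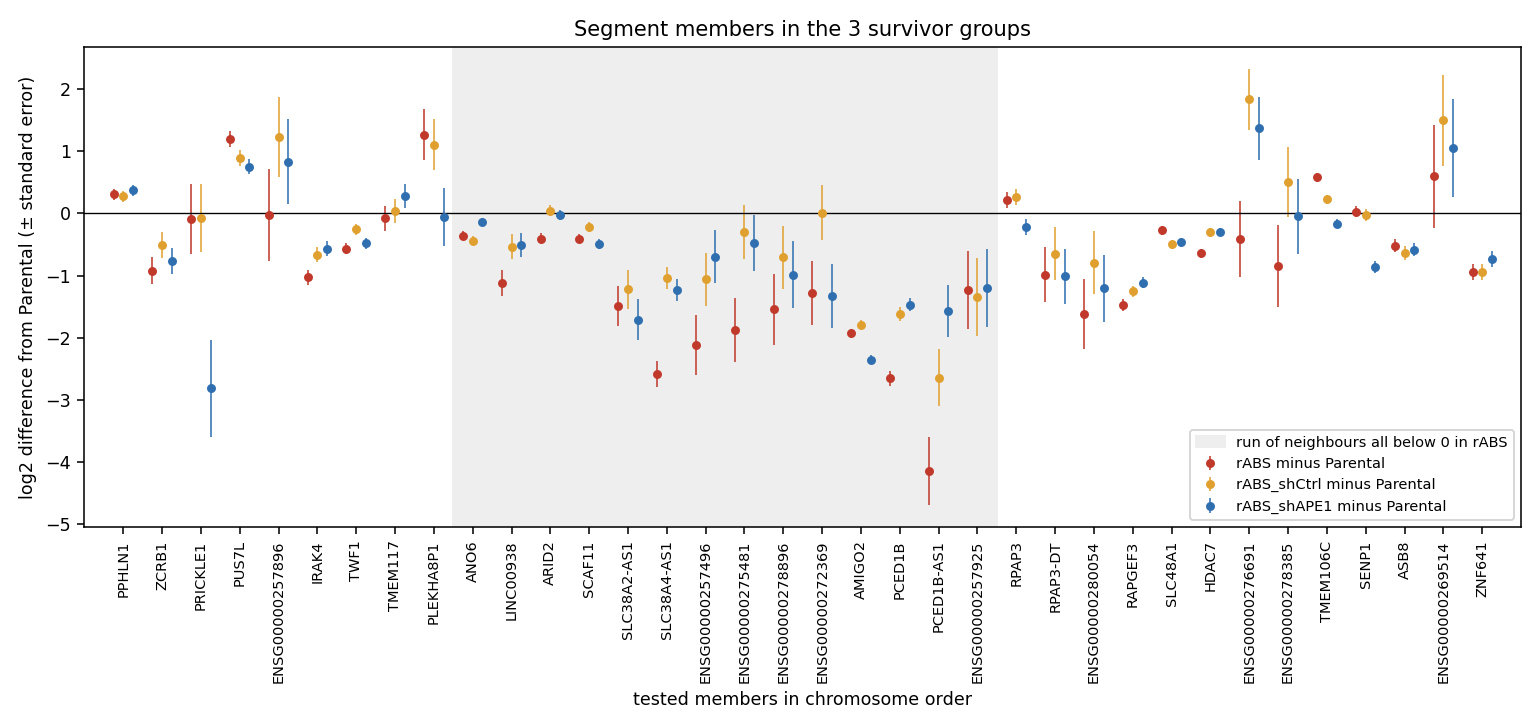
Log2 difference from Parental (vertical axis, ± standard error) of the 36 tested members in chromosome order, for rABS, shCtrl and shAPE1. The shaded stretch holds the 14 members from ANO6 to ENSG00000257925, all below 0 in rABS, while PUS7L and PLEKHA8P1 before it lie above 1.

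Against Parental, the median log2 difference of the 36 tested members in rABS was -0.74 (quartiles -1.47 and -0.09), beside -0.01 over all genes tested. One model was fitted to all 12 libraries. The 20 protein-coding members tested had 13 lower, 3 higher and a median of -0.41, and the 16 others had 9 lower, 1 higher and a median of -1.25. Over all protein-coding genes tested, 32.7% were lower and 33.9% higher. Over all other genes tested, 18.6% were lower and 13.7% higher.

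The members were not low throughout. A run of 16 neighbouring tested genes, from ANO6 to ENSG00000257925 (bases 45215987 to 47279021, 2.06 Mb), all had a rABS level below Parental. It holds 14 members and the left-out SLC38A1 and SLC38A2. The 16 genes are not separate loci, since several overlap and may share reads. AMIGO2 and PCED1B-AS1 overlap PCED1B, and SLC38A2-AS1 overlaps SLC38A2. ENSG00000257496, ENSG00000275481, ENSG00000278896 and ENSG00000272369 lie within SLC38A4-AS1. Of its 14 members 13 were called lower, with a median of -1.51, where 29.9% of all genes tested were called lower. Its 5 protein-coding members were all called lower, but with a median of -0.41. The 15 protein-coding members outside the run had 8 lower, 3 higher and a median of -0.275. The gap between the run and the other members was thus small among protein-coding genes. The 9 members before the run had 3 lower, 3 higher and a median of -0.08, and the 13 after it had 6 lower, 1 higher and a median of -0.52. Runs of neighbours below Parental occurred elsewhere too. Of 3463 such runs over all chromosomes, 5 were at least as long, this one included, and the longest had 21 genes. The segment was chosen on this contrast and the run is the longest in it. A long run was therefore favoured in advance, and nothing is read from its rank. Runs of neighbours above Parental were not counted.

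The lower level of the run was present in each survivor library. Of its 14 members 5 are protein-coding, and the rest had group means of at most 7.73 CPM. The median over its 14 members, relative to the Parental mean, was -1.46, -1.48 and -1.61 in the rABS libraries, -0.81, -0.68 and -0.80 in shCtrl and -0.89, -1.07 and -0.74 in shAPE1. The run was picked as genes with rABS below Parental, so low rABS values follow from that choice. High Parental values were favoured too, so hairpin libraries below the Parental mean are no separate support. The rABS libraries were below all shCtrl and shAPE1 libraries, an order that the choice also favoured. Those of shCtrl and shAPE1 overlapped each other. For the 22 members outside the run the medians were -0.19, -0.42 and -0.41 in the rABS libraries, 0.01, -0.15 and -0.09 for shCtrl and -0.45, -0.43 and -0.32 for shAPE1. There the shCtrl libraries were the nearest to Parental.

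**Figure D2:**
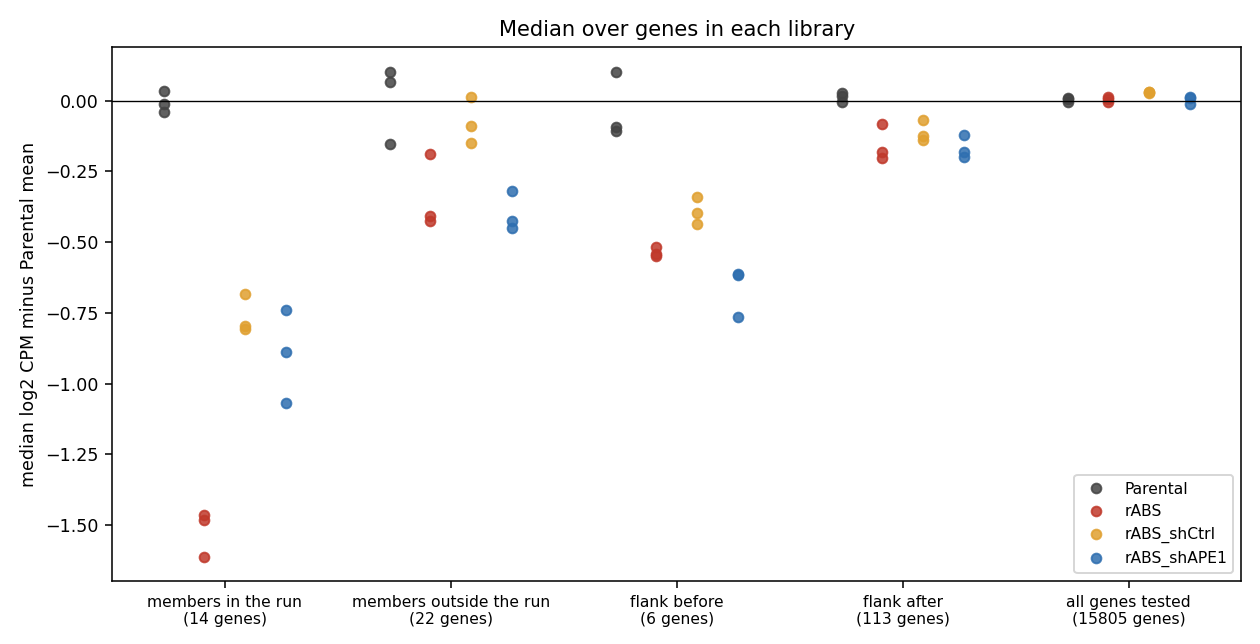
Median over genes of log2 CPM minus the Parental mean (vertical axis) in each of the 12 libraries, for members in and outside the run, both flanks and all genes tested; each point is 1 library. The rABS libraries lie from -1.61 to -1.46 in the run, of whose 14 members 5 are protein-coding.

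Within the run, AMIGO2 and PCED1B were the protein-coding members with the lowest survivor levels relative to Parental. AMIGO2, a leucine-rich-repeat adhesion protein of the cell surface, was at 273, 297 and 299 CPM in Parental. It stood at 75.6, 76.0 and 76.6 CPM for rABS, 86.6, 77.1 and 88.0 for shCtrl, and 56.2, 51.4 and 62.8 for shAPE1. The 3 survivor groups did not overlap Parental, and each shAPE1 library was below each shCtrl library. AMIGO2 was 3.81-fold lower in rABS than in Parental (log2 -1.93 ± 0.08). PCED1B, which encodes a PC-esterase domain, was at 44.4, 46.1 and 43.2 CPM in the Parental libraries, 6.78, 6.69 and 7.72 in those of rABS, 12.7, 16.3 and 14.4 in those of shCtrl and 14, 18.5 and 16 in those of shAPE1. The order was Parental, then the hairpin groups, which overlapped, then rABS. PCED1B was 6.30-fold lower in rABS than in Parental (log2 -2.66 ± 0.12).

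The other protein-coding members of the run differed less. ANO6, a calcium-activated scramblase that moves phospholipids between the leaflets of the membrane, was at 195, 228 and 201 CPM (Parental), 166, 149 and 170 (rABS), 160, 147 and 152 (shCtrl) and 188, 195 and 183 (shAPE1). ARID2, the subunit that marks the PBAF chromatin-remodelling complex, was at 92.1, 110 and 92.2 CPM in the Parental libraries, 81.3, 64.6 and 76.3 in those of rABS, 101, 96.6 and 106 in those of shCtrl and 104, 90.6 and 95.8 in those of shAPE1. SCAF11, a serine- and arginine-rich splicing factor, was at 131, 156 and 138 CPM (Parental), 106, 102 and 114 (rABS), 131, 111 and 124 (shCtrl) and 101, 92.5 and 109 (shAPE1). The rABS libraries of all 3 genes were below their Parental libraries. The hairpin groups stood differently in each gene, since ARID2 overlapped Parental in both, SCAF11 overlapped Parental in shCtrl alone, and ANO6 was nearest to Parental in shAPE1.

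Before the run, PPHLN1, which encodes periphilin of the HUSH complex that silences transposons, was at 26.6, 26.9 and 29.7 CPM in Parental. It stood at 34.5, 35.3 and 33.2 CPM for rABS, 35.5, 31.8 and 33.4 for shCtrl and 33.9, 34.9 and 38.9 for shAPE1. All survivor libraries were above all Parental libraries. ZCRB1, a protein of the minor spliceosome, lies inside PPHLN1 on the other strand and was at 50.03, 55.7 and 59.0 CPM in the Parental libraries, 26.4, 28.9 and 31.9 in those of rABS, 42.4, 36.1 and 38.0 in those of shCtrl and 38.3, 19.4 and 39.3 in those of shAPE1. All survivor libraries of ZCRB1 were below Parental, and 1 shAPE1 library was low beside the other 2. TWF1, the actin-monomer binder twinfilin-1, was at 113, 142 and 125 CPM (Parental), 79.4, 79.1 and 97.6 (rABS), 117, 97.0 and 105 (shCtrl) and 89.7, 86.2 and 97.2 (shAPE1). TMEM117, a membrane protein, was not called in any comparison, at 4.03 ± 0.52 CPM in Parental (SD, n = 3, as for each mean here), 3.82 ± 0.37 in rABS, 4.14 ± 0.52 in shCtrl and 4.86 ± 1.11 in shAPE1.

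After the run, RAPGEF3, the cyclic AMP-activated exchange factor for RAP GTPases, was at 74.9 ± 6.63 CPM in Parental, 27.0 ± 1.54 in rABS, 31.3 ± 3.28 in shCtrl and 34.6 ± 2.35 in shAPE1. Its 3 survivor groups were 2.78-, 2.38- and 2.16-fold below Parental. HDAC7, a class IIa histone deacetylase, was at 197, 179 and 188 CPM in the Parental libraries, 124, 121 and 116 in those of rABS, 142, 158 and 156 in those of shCtrl and 140, 162 and 156 in those of shAPE1. The hairpin groups of HDAC7 overlapped each other between Parental and rABS. SLC48A1, a heme transporter, was at 96.1, 87.3 and 92.0 CPM (Parental), 78.7, 77.1 and 71.8 (rABS), 65.7, 63.9 and 65.5 (shCtrl) and 60.9, 72.4 and 66.0 (shAPE1).

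TMEM106C, a membrane protein, went the other way in rABS. Its level was 89.6, 93.2 and 97.7 CPM in the Parental libraries, 133, 145 and 141 in those of rABS, 112, 102 and 114 in those of shCtrl and 76.1, 83.1 and 91.0 in those of shAPE1. RPAP3, a co-chaperone that helps to assemble RNA polymerases, was at 20.8 ± 3.11 CPM in Parental, 24.3 ± 2.62 in rABS, 25.1 ± 4.6 in shCtrl and 18 ± 2.66 in shAPE1, and was not called against Parental in any group. SENP1, a protease that removes SUMO from proteins, was at 36.0, 45.2 and 41.1 CPM (Parental), 40.3, 41.9 and 42.9 (rABS), 42.7, 36.7 and 41.2 (shCtrl) and 24.7, 20.7 and 22.0 (shAPE1). The shAPE1 libraries alone stood apart for SENP1.

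At the far end, ASB8, a substrate receptor of a ubiquitin ligase, was at 26.4, 33.6 and 30.3 CPM in the Parental libraries, 21.4, 20.9 and 20.9 in those of rABS, 18.4, 18.2 and 21.6 in those of shCtrl and 21.9, 17.8 and 20.6 in those of shAPE1. ZNF641, a zinc-finger protein, was at 14.3, 16.2 and 15.2 CPM (Parental), 7.80, 8.61 and 7.41 (rABS), 8.29, 8.49 and 7.07 (shCtrl) and 8.69, 10.5 and 8.31 (shAPE1). For both genes the 3 survivor groups overlapped one another below Parental.

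**Figure D3:**
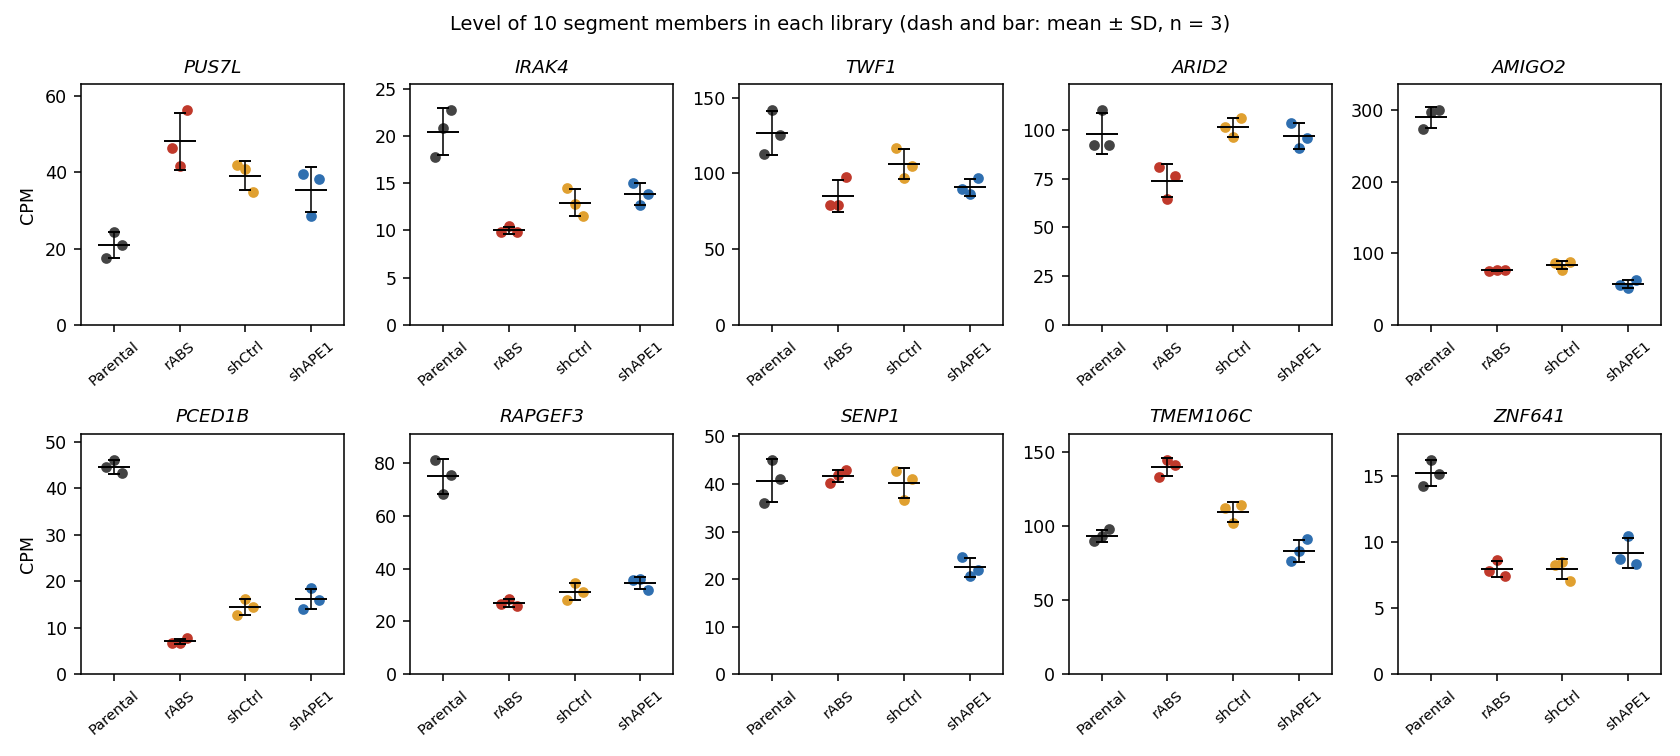
CPM (vertical axes, starting at 0) of 10 members in every library by group, with the mean ± SD (n = 3). PUS7L and TMEM106C are above Parental in rABS, SENP1 is low in shAPE1 alone, and AMIGO2 is below 100 CPM in all survivor libraries.

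The 16 non-coding members were low throughout, with group means from 0.140 to 7.73 CPM. SLC38A4-AS1, a long non-coding RNA whose locus spans 5 other members, was at 8.44, 7.44 and 7.31 CPM in the Parental libraries, 1.20, 1.22 and 1.41 in those of rABS, 3.86, 3.44 and 3.98 in those of shCtrl and 3.57, 2.87 and 3.38 in those of shAPE1. Its hairpin groups overlapped between Parental and rABS. LINC00938 was at 5.34 ± 0.34 CPM in Parental, 2.42 ± 0.66 in rABS, 3.70 ± 0.34 in shCtrl and 3.74 ± 0.48 in shAPE1. SLC38A2-AS1, which overlaps the start of SLC38A2 on the other strand, was at 3.12 ± 0.39, 1.11 ± 0.09, 1.32 ± 0.55 and 0.957 ± 0.40 CPM in the same order of groups. The largest fitted difference of rABS from Parental was that of PCED1B-AS1 (log2 -4.14 ± 0.55), which rests on 8 counts over the 3 rABS libraries and 139 over the Parental ones. Of the protein-coding members under 1 CPM in every group, PRICKLE1 was tested, with 30 counts in Parental, 29 in rABS and 33 in shCtrl.

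The 2 hairpin groups were also set against Parental. They share the Parental libraries with the contrast that chose the segment, so their values stand side by side with no test read. In shCtrl, 16 members were called lower and 5 higher, with a median of -0.38, where 26.1% of all genes were called lower and 27% higher. In shAPE1, 18 were lower and 3 higher, with a median of -0.54, where 27.5% of all genes were lower and 26.2% higher. The medians over all genes were 0.03 and 0.00. In the run, 9 of 14 members were lower in shCtrl (median -0.87) and 8 in shAPE1 (median -1.09), none higher. The 5 protein-coding members of the run had medians of -0.44 and -0.49.

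Between shCtrl and rABS, which differ by transduction with a non-targeting hairpin and by the culture that went with it, 10 of 36 members were called higher and 3 lower (27.8% and 8.33%). Over all genes, 17.9% were called higher and 18.6% lower. The median member was 0.33 higher in shCtrl, beside 0.02 over all genes. The rABS libraries took part in the choice of the members, so this direction is a description. Without rABS replicate 1 the count of higher members was 5. The count of lower members was 1 without rABS replicate 1, and 1 without shCtrl replicate 2 or 3. Among the 20 protein-coding members 5 were higher and 3 lower, with a median of 0.08, and among the 16 others 5 were higher and none lower, with a median of 0.98. Over all 3144 tested genes not annotated as protein-coding, these 16 included, the median was 0.23, with 12.5% called higher and 5.25% lower. Over all 12661 protein-coding genes tested it was -0.01, with 19.3% called higher and 21.9% lower. Across the 36 members the shift went with a low level. Pearson's r between the log2 difference and mean log2 CPM was -0.58, and Spearman's rho was -0.50, across genes that share the same 6 libraries and are not independent.

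The values of single members between these groups are likewise descriptions, since low rABS values favoured their choice. PCED1B was 2.05-fold higher in shCtrl than in rABS (log2 1.04 ± 0.12), and SLC38A4-AS1 was 2.92-fold higher (log2 1.54 ± 0.22). ARID2 was 1.37-fold higher and HDAC7 1.26-fold higher. IRAK4 was 1.29-fold higher, a call that was lost without rABS replicate 1, rABS replicate 3 or shCtrl replicate 1. TWF1 was 1.24-fold higher, lost without rABS replicate 1 or shCtrl replicate 1. The 3 members called lower in shCtrl were TMEM106C (log2 -0.35 ± 0.07), PUS7L (log2 -0.30 ± 0.12) and SLC48A1 (log2 -0.22 ± 0.08). TMEM106C and PUS7L were above Parental in rABS, while SLC48A1 was below Parental in rABS and lower still in shCtrl. The PUS7L call was lost in 10 of 15 alternatives. The SLC48A1 call was lost without rABS replicate 1 or 2 and without shCtrl replicate 2 or 3. AMIGO2 and ZNF641 were not called, with log2 differences of 0.14 ± 0.08 and 0.01 ± 0.14.

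The comparison of shAPE1 with shCtrl shares no library with the one that chose the segment. Here 9 of 36 members were called lower and 1 higher (25% and 2.78%), where 18.8% of all genes were lower and 17.8% higher. The median member was at -0.21, beside -0.02 over all genes. The lower share was close to the background, and it rested in part on single libraries. It was 4 of the members without shCtrl replicate 1, and the median was -0.11 without shCtrl replicate 2 and -0.11 without shAPE1 replicate 2. The count of higher members was 2 without shCtrl replicate 2. The median of the 20 protein-coding members was -0.03, with 7 lower and 1 higher. Over all protein-coding genes tested it was -0.01, with 21.8% lower and 21.2% higher. The 16 other members had a median of -0.38, with 2 lower and none higher. Over all other genes tested the median was -0.07, with 6.97% lower and 3.94% higher. In the run, 3 of 14 members were lower and 1 higher, with a median of -0.13.

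SENP1 and AMIGO2 carried the smallest p-values among the members. SENP1 was 1.78-fold lower in shAPE1 than in shCtrl (log2 -0.84 ± 0.10, edgeR adjusted p = 2.84e-08). AMIGO2 was 1.48-fold lower (log2 -0.56 ± 0.08, edgeR adjusted p = 4.68e-07), and TMEM106C 1.31-fold lower (log2 -0.39 ± 0.08, edgeR adjusted p = 8.47e-05). ANO6 was the 1 member called higher, by 1.23-fold (log2 0.30 ± 0.07, edgeR adjusted p = 9.17e-04). In all 4 genes the 3 shAPE1 libraries did not overlap the 3 shCtrl libraries, and the call held in each of the 15 alternatives tried.

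Of the other 6 calls, RPAP3 was 1.40-fold lower in shAPE1 than in shCtrl (edgeR adjusted p = 0.00347), a call lost without shCtrl replicate 1. SCAF11 was 1.21-fold lower (edgeR adjusted p = 0.00681), lost without shCtrl replicate 1 or shAPE1 replicate 2. TWF1 was 1.17-fold lower (edgeR adjusted p = 0.0464), its groups overlapped, and the call was lost in 9 of 15 alternatives. PRICKLE1, a planar cell polarity protein, had 4 counts in all shAPE1 libraries together against 33 in shCtrl (edgeR adjusted p = 0.00543), and 1 of the shAPE1 libraries had none. Its groups did not overlap, and the call held in each of the 13 alternatives that could be fitted for it. The pseudogene PLEKHA8P1 had 42 counts against 111 (edgeR adjusted p = 0.0263), with overlapping groups. Its call was lost without shCtrl replicate 1 or 3 and without shAPE1 replicate 1 or 2. ENSG00000272369 had 18 counts against 54 (edgeR adjusted p = 0.0381), a call that was not followed through the alternatives.

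**Figure D4:**
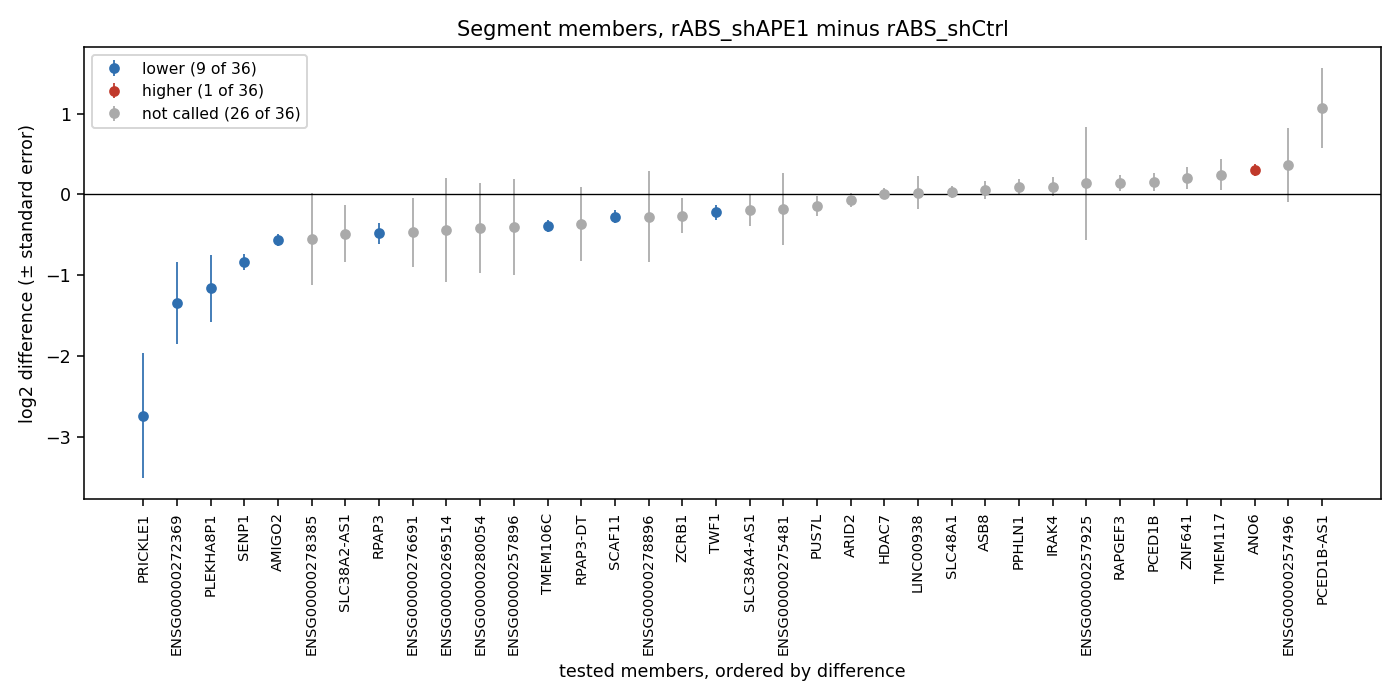
Log2 difference between shAPE1 and shCtrl (vertical axis, ± standard error) of the 36 tested members, ordered by size and coloured by call. The 9 members called lower include SENP1 at -0.84 and AMIGO2 at -0.56, ANO6 at 0.30 is the 1 called higher, and 26 are not called.

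The 4 genes left out by the rule lie among the members. SLC38A1 and SLC38A2, neutral amino acid transporters, are in the run. SLC38A1 was at 673 ± 62.9 CPM in Parental, 414 ± 34.5 in rABS, 463 ± 24.5 in shCtrl and 407 ± 4.67 in shAPE1. SLC38A2 was at 733 ± 44.4, 274 ± 22.3, 326 ± 10.2 and 244 ± 8.47 CPM in the same order, with no overlap between Parental and any survivor group. VDR, the vitamin D receptor, was at 62.0 ± 2.5, 54.3 ± 2.48, 54.5 ± 0.337 and 61.5 ± 4.89 CPM. PFKM, the muscle phosphofructokinase, was at 74.1 ± 4.32, 69.7 ± 4.40, 64.2 ± 1.43 and 71.3 ± 2.20 CPM. With these 4 genes added, 25 of 40 tested genes of the segment were lower in rABS than in Parental and 4 higher, with a median of -0.67.

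The flanks are the tested genes of chromosome 12 within 1 segment length on either side. The flank before the segment is gene-poor, with 6 tested genes, while the flank after it has 113. Those before it lay below Parental as well. Of the 6, 5 were called lower in rABS, 5 in shCtrl and 6 in shAPE1, with medians of -0.55, -0.41 and -0.58. Over all genes tested, 29.9%, 26.1% and 27.5% were called lower in these groups. In these 6 genes no border of the lower levels was seen at the start of PPHLN1. YAF2, the nearest of them, was not called in rABS (log2 -0.23 ± 0.15). The members before the run went both ways in rABS, with 3 lower, 3 higher and a median of -0.08.

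Of the 5 tested genes nearest the start, CPNE8, a calcium-dependent membrane-binding copine, was at 16.4 ± 3.04 CPM in Parental and 10.8 ± 0.643 in rABS. KIF21A, a kinesin motor, was at 49.4 ± 4.69 and 31.2 ± 2.22 CPM. SLC2A13, a myo-inositol transporter, was at 7.95 ± 0.655 and 2.64 ± 0.457 CPM. GXYLT1, a xylosyltransferase, was at 17.0 ± 0.960 and 12.2 ± 0.349 CPM. YAF2, a partner of the Polycomb proteins, was at 10.6 ± 1.98 and 9.09 ± 0.703 CPM. The first 4 of these were called lower in all 3 survivor groups against Parental, and YAF2 was called lower in shAPE1. Between survivor groups YAF2 was not called, with log2 differences of -0.305 ± 0.146 for shAPE1 minus shCtrl and 0.145 ± 0.144 for shCtrl minus rABS. The shAPE1 and rABS groups were not compared directly.

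The genes just after the end were mixed. KANSL2, a subunit of a histone acetyltransferase complex, was at 14.1 ± 1.33 CPM in Parental and 19.1 ± 1.54 in rABS. CCNT1, the cyclin of the elongation kinase P-TEFb, was at 82.9 ± 12.2 and 70.3 ± 3.16 CPM. ADCY6, an adenylyl cyclase, was at 45.6 ± 6.33 and 35.9 ± 3.12 CPM. CACNB3, a calcium-channel subunit, was at 58.0 ± 4.85 and 35.9 ± 0.730 CPM. DDX23, a spliceosomal helicase, was at 87.7 ± 2.05 and 134 ± 5.31 CPM. So 3 were lower and 2 higher, and no border in direction was seen at ZNF641 either.

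Over the whole flank after the segment, 43 of 113 genes were lower in rABS and 30 higher, with a median of -0.16. Over the 680 tested genes on the rest of chromosome 12, 268 were lower (39.4%) and 160 higher (23.5%), with a median of -0.16. Against shCtrl, shAPE1 had 23 of the 113 genes lower and 22 higher, with a median of -0.03, and 1 of the 6 before the segment lower, with a median of -0.15. Between shCtrl and rABS the flank medians were 0.17 before and 0.00 after the segment.

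**Figure D5:**
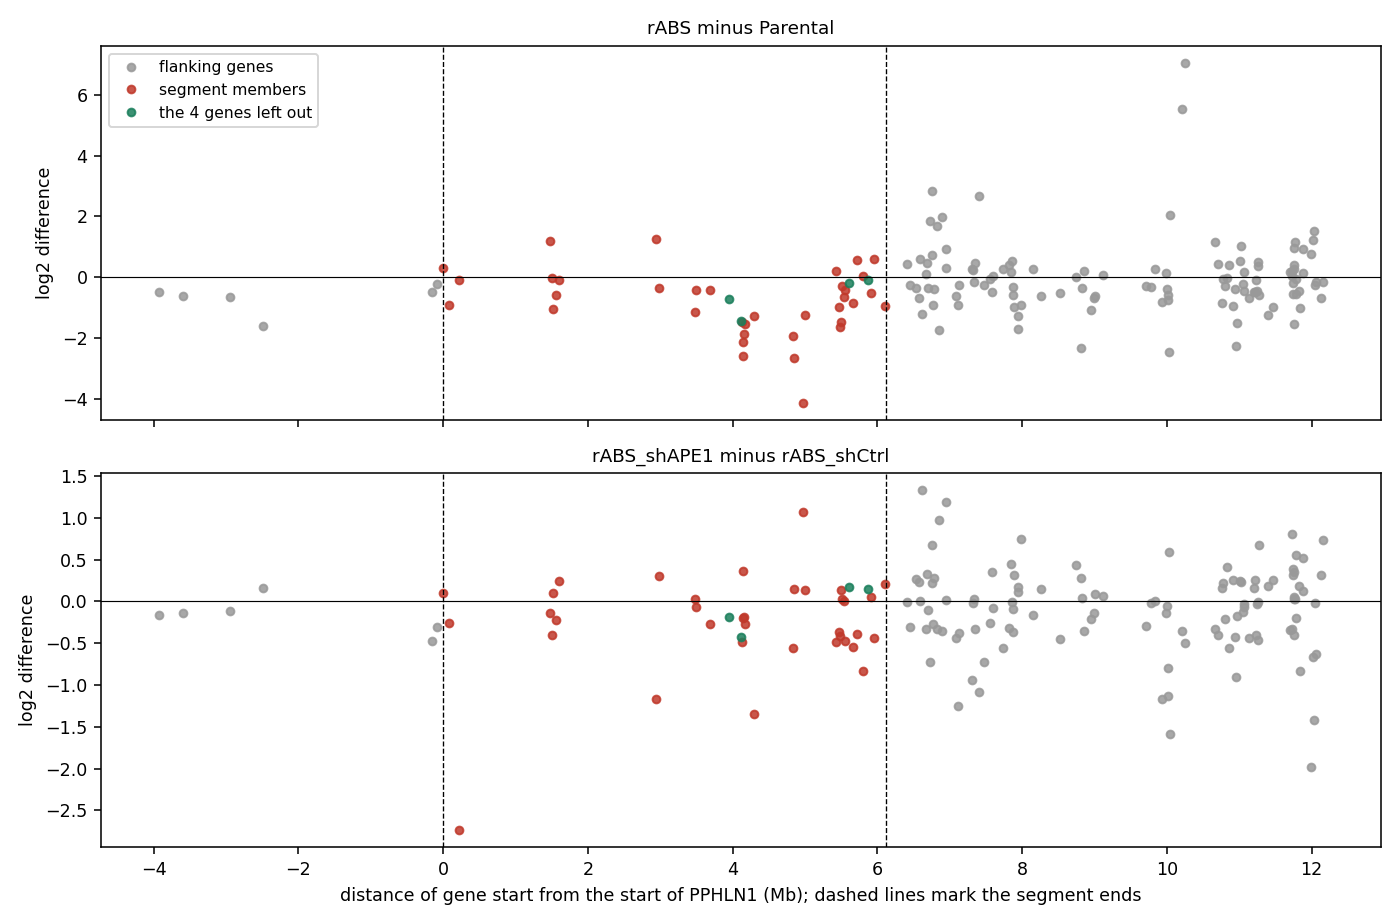
Log2 difference (vertical axes) of members, the 4 genes left out and flanking genes by distance in Mb of the gene start from the start of PPHLN1, for rABS minus Parental above and shAPE1 minus shCtrl below; dashed lines mark the segment ends. The member values below -2 in the upper panel lie 4 to 5 Mb into the segment, the 6 genes before it lie below 0, and the genes after it lie on both sides of 0.

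Partners of the members that are encoded elsewhere moved both ways. Over 51 tested partners from 8 lists, 10 were lower (19.6%) and 25 higher (49%) in rABS than in Parental, with a median of 0.20. Over all genes tested, 29.9% were called lower and 29.9% higher in this comparison. Of 10 other PBAF subunits, 7 were higher and none lower, beside the lower ARID2. SMARCA4, its ATPase, was at 174 CPM in Parental and 268 in rABS, SMARCC1 at 158 and 289, and SMARCC2 at 189 and 231. Of 7 other R2TP and prefoldin-like components, 4 were higher and none lower, among them the ATPases RUVBL1 (33.3 and 83.0 CPM) and RUVBL2 (132 and 193) and the adaptor PIH1D1 (38.0 and 57.2). RPAP3 itself was not called there.

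Of the 3 other class IIa deacetylases, HDAC9 was at 163 CPM in Parental and 108 in rABS and HDAC5 at 71.8 and 30.2, both called lower, like HDAC7. HDAC4, at 36.1 and 36.6, was not called. Of the 5 other genes of the MyD88 relay, 1 was lower and 2 higher. The kinase IRAK1 was at 375 and 665 CPM, its relative IRAK2 at 136 and 75.1, and the adaptor MYD88, which was not called, at 45.2 and 52.5. Of 5 other HUSH components, 1 was lower and 2 higher. MORC2 was among the higher ones, at 60.0 and 76.9 CPM, while ATF7IP (134 and 144) and TASOR (98.0 and 106) were not called.

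The 5 other SUMO proteases had 2 lower and 3 higher in rABS than in Parental. Between shAPE1 and shCtrl, 18.8% of all genes were called lower and 17.8% higher. SENP1 was lower there, and so was 1 of the 5 others, SENP5, at 64.8 CPM in shCtrl and 41.3 in shAPE1. None of the 5 was higher. SENP6 was at 73.9 and 79.0, and SENP2 at 42.0 in both. Of the 11 tested planar polarity partners of PRICKLE1, 4 were lower and 5 higher in shAPE1 than in shCtrl. CELSR1 was at 145 and 137 CPM there and not called, and DVL1 (125 and 149) and DVL3 (131 and 171) were higher. Of 5 tested anoctamins, 1 was lower and 1 higher, ANO1 at 319 and 204 CPM and ANO10 at 24.7 and 31.8. ANO8 was not called, at 11.9 and 12.1.

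The 7-base string TGCATTC and a pair of strings that overlap it, GCATTCT shifted to the right and CTGCATT shifted to the left, were picked in earlier work from the fold changes between shAPE1 and shCtrl in these same libraries, so their counts are no separate support. They were searched in the longest annotated 3′ untranslated region of 20 members. A match was present in 5, of which 3 were called lower (SCAF11, AMIGO2 and SENP1) and none higher. PUS7L and ZNF641 had a match with log2 differences of -0.14 ± 0.12 and 0.20 ± 0.14. Of the 15 members without a match 4 were lower and 1 higher. Over all 12471 genes searched, 29.1% had a match, and 36.7% of those were lower, against 15.9% of the genes without one. For each member the first TGCATTC is shown or, where that string is absent, the first match of the other strings. Matched letters are in capitals, and the position is counted from 1 at the start of the untranslated region. Whether the hairpin acts at these letters was not tested.
SENP1, position 137 of 2348: tggcgagaTGCATTCacaagcac
AMIGO2, position 1514 of 1727: ggggtttaGCATTCTccctggtg
SCAF11, position 2127 of 2917: tacttttcCTGCATTttctttca
PUS7L, position 2797 of 11383: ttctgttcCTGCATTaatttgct
ZNF641, position 4346 of 5793: gcccaaaaTGCATTCTgctgctt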

How the data were processed

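The authors deposited raw counts for each Ensembl gene, as whole numbers that were not normalized. Per the submitters' processing notes, the tools named are Trimmomatic 0.36, STAR 2.5.2b and featureCounts of Subread 1.5.2, with the build GRCh38. The annotation release, strand setting and handling of multi-mapping reads are not stated there. Positions are GENCODE 29 (56898 genes placed).

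Genes were kept with filterByExpr (minimum count 10, minimum total 15), scaled with TMM and fitted with edgeR 4.0.16 (limma 3.58.1, R 4.3.3), robust dispersion and 1 term per group, over 12 libraries. CPM use TMM-scaled totals, except marker sums, which use unscaled totals. Log2 CPM use a prior count of 2. The procedure was tested on simulated data.

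The members and lists were chosen with earlier results of these data known. Named are the protein-coding members whose mean reached 1 CPM in some group, and every library is given for the 8 at the highest mean CPM and 2 at each end. Also named are the 4 genes left out, the 5 tested genes nearest each end, up to 3 non-coding members by level and up to 3 partners per list by level. PUS7L, IRAK4, PCED1B, SENP1, PRICKLE1, PLEKHA8P1, PCED1B-AS1, ENSG00000272369 and the run of neighbours were singled out after their values were seen.

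Replicates are described as independent, with no batch given. No libraries agreed within sampling noise. Same-numbered libraries did not deviate together (correlations from -0.167 to 0.067), so numbers were not taken as pairs. Alternatives were RLE, upper-quartile and TMM factors from outside chromosome 12, other filters, a replicate block, the 6 libraries alone, leaving out each library, limma-voom, DESeq2 1.42.0, protein-coding members only and other flank sizes.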

Additional observations from a re-analysis of the deposited data

How the results depend on the processing

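Of 285 recomputed counts and medians over members and flanks, 231 stayed within 1.5 times (counts) or within the replicate spread (medians). No median changed sign. Counts were compared by size alone, so they could not show a reversal. For rABS against Parental, the member median moved to -0.57 with a filter of 1 CPM in 3 libraries, -0.92 with the 6 libraries alone and -0.41 over protein-coding members, of which 13 were lower. For shCtrl against Parental it moved to -0.30 with no filter beyond 1 count, -0.43 at 1 CPM, -0.47 with 6 libraries and -0.28 over protein-coding members, of which 3 were higher. For shCtrl against rABS it moved to 0.24 at 1 CPM, 0.24 with 6 libraries and 0.079 over protein-coding members, of which 5 were higher. For shAPE1 against shCtrl it moved to -0.14, -0.15 and -0.029 under the same settings. The protein-coding and 1 CPM settings hold fewer genes by construction, and the cause of the other shifts was not tested.

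Both other flank settings hold fewer genes by construction. The 15 tested genes nearest the start reach beyond the flank before the segment, which has 6. In the 15 tested genes nearest each end, the counts lower and higher were 15 and 9 for rABS against Parental (median -0.31), 13 and 8 for shCtrl against Parental, and 15 and 6 for shAPE1 against Parental (median -0.31). They were 3 and 5 for shCtrl against rABS and 5 and 7 for shAPE1 against shCtrl. Within 3 Mb of either end they were 24 and 15, 21 and 12 (median -0.067), 21 and 10, 8 and 11, and 12 and 12, in the same order. The full flanks had 21 and 19 for shCtrl against rABS and 24 and 22 for shAPE1 against shCtrl. The larger count thus changed sides in shCtrl against rABS under both settings. In shAPE1 against shCtrl it did so with the 15 nearest genes.

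Leaving out each library in turn gave 20 to 23 members lower, 3 to 4 higher and a median from -0.85 to -0.57 for rABS against Parental. It gave 13 to 16, 4 to 6 and -0.43 to -0.29 for shCtrl against Parental, and 16 to 19, 2 to 3 and -0.63 to -0.50 for shAPE1 against Parental. For shCtrl against rABS the ranges were 1 to 2, 5 to 10 and 0.27 to 0.36, and for shAPE1 against shCtrl 4 to 8, 1 to 2 and -0.23 to -0.11. With the replicate number as a block, the members called lower and higher were 22 and 4, 17 and 5, 18 and 3, 2 and 9, and 7 and 1, in the order of comparisons used for the flanks, with medians of -0.69, -0.38, -0.54, 0.32 and -0.23. The numbers do not pair the libraries.

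Calls on named genes held in every alternative for 23 of 25 genes in rABS against Parental, 15 of 23 in shCtrl against Parental, 20 of 22 in shAPE1 against Parental, 7 of 12 in shCtrl against rABS and 7 of 12 in shAPE1 against shCtrl. The named genes counted here include APEX1 and genes that the rule leaves out, and do not include ENSG00000272369. The segment was chosen on rABS against Parental, so calls of members against Parental that held are no separate support. VDR lost its call in rABS against Parental in 8 of 15 alternatives. PUS7L lost its call between shCtrl and rABS in 10 of 15. Depth limits the members with few counts, such as PRICKLE1 and PCED1B-AS1, and SLC38A4 and ENDOU were too low for the model.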
